A study of Mus musculus with 3 samples.

Results

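Glycolysis splits glucose into pyruvate in the cytosol, and lactate dehydrogenase then exchanges pyruvate for lactate. The enzymes described here were 10 genes of the 18545 in the matrix, listed by name: the hexokinases Hk1 and Hk2, the phosphofructokinases Pfkm and Pfkp, the aldolases Aldoa and Aldoc, the enolase Eno1, the pyruvate kinase Pkm, and the lactate dehydrogenases Ldha and Ldhb. Their transcripts were followed over retinal cell classes and over 3 libraries, with photoreceptors set against Müller glia (MG) and bipolar cells. Single-cell RNA sequencing had been done on dissociated retinas of C57BL/6J mice aged 8 weeks, all of them kept in the dark for life. The 3 groups held 1 pooled library each. Wild-type mice (WT) ate base chow, rd10 mice of the vehicle group (rd10-vehicle) ate the same chow, and rd10 mice of the treated group (rd10-TMB) ate chow with tamsulosin, metoprolol and bromocriptine. All cells of rd10 mice bear a mutated Pde6b, which encodes a subunit of the phosphodiesterase of rods, and dark rearing slows the loss of these cells. The rd10 libraries were from females and WT, by the text of the study, from both sexes, so the pools compared with WT also differ in sex. The labels give 4 mice per pool, although fewer are stated in the text of the study for rd10.

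Photoreceptors are known for aerobic glycolysis, in which most glucose is turned into lactate although oxygen is present. Several steps can be run by more than 1 isozyme, the product of a separate gene: hexokinase 2 binds mitochondria and is a marker of highly glycolytic cells, hexokinase 1 is the housekeeping form of neurons, and the A and B subunits of lactate dehydrogenase favour lactate and pyruvate formation, respectively. Müller glia span the retina, store glycogen and exchange metabolites with photoreceptors, and aldolase C is a known marker of astroglia.

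The promoters of 4 members are shown, the pair with the highest ratios of photoreceptors to MG-like cells (Hk2 and Ldha) and the pair with the lowest (Aldoc and Ldhb). Hk2 spans chr6:82725025-82774454 (GRCm38) on the minus strand, Ldha chr7:46841475-46855627 on the plus strand, Aldoc chr11:78322968-78327781 on the plus strand and Ldhb chr6:142490249-142507957 on the minus strand. Each run is the 250 bases before the RefSeq start in GRCm38.p6, read 5′ to 3′ on the strand of the gene: chr6:82774455-82774704 on the minus strand for Hk2, chr7:46845554-46845803 on the plus strand for Ldha, chr11:78323948-78324197 on the plus strand for Aldoc and chr6:142507958-142508207 on the minus strand for Ldhb. The Ldha and Aldoc windows lay inside the annotated span of their gene, for which further starts are listed upstream. Capitals mark ACGTG or GCGTG on either strand, the core of the hypoxia response element.
Hk2: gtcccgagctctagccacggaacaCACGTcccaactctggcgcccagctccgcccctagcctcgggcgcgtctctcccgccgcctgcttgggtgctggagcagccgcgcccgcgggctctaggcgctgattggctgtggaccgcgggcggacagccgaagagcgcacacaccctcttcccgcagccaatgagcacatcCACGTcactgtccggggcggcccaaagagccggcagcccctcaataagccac
Ldha: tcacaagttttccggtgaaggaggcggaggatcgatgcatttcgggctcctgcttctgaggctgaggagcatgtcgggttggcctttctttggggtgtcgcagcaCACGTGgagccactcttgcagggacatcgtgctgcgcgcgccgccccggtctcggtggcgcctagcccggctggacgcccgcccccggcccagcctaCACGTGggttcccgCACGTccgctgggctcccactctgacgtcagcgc
Aldoc: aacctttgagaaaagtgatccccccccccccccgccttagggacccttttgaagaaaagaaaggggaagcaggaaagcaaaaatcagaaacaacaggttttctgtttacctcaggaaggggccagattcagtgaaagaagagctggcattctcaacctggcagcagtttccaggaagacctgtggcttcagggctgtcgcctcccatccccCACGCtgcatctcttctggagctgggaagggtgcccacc
Ldhb: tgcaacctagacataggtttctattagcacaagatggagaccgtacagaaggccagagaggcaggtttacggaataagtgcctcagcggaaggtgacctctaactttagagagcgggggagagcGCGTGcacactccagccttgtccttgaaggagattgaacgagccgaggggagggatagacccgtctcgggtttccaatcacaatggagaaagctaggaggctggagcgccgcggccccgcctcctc
There were 2 such matches for Hk2, 5 for Ldha, 1 for Aldoc and 1 for Ldhb. The 2 copies of CACGTG (an E-box) in Ldha were each matched on both strands. The core stood in the first promoter window of 8 of the 10 members, the exceptions being Hk1 and Pkm, and in 38.6% of the 32851 promoter windows of this length in the table. The E-box was in those of Pfkm and Ldha (6.02% of all windows), and TAATCC, a sequence known to be bound by the photoreceptor factor CRX, was in that of Pfkp alone (6.25% of all windows). The first window was that with the most GENCODE starts within 50 bases, ties going to the lower coordinate. Over all 21 windows of the members the core was in 17, the E-box in 2 and TAATCC in 4. Further windows of Hk1 and Pkm held the core, and further ones of Pfkm, Aldoc and Ldha held TAATCC. A match of letters is a description and not a binding site.

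The libraries held 4478 cells (WT), 5952 (rd10-vehicle) and 4812 (rd10-TMB), with 18882951, 37002532 and 29192530 unique molecular identifiers (UMIs) and medians of 3509.5, 4811.5 and 4772.5 UMIs per cell, and 25 barcodes occurred in more than 1 library. A UMI stands for 1 transcript tagged at its 3′ end, so levels are per molecule and need no length correction. They are given as UMIs of a gene per 1000000 UMIs of a cell class in a library (CPM), in the order WT, rd10-vehicle, rd10-TMB. Clusters are the authors' numbers, and their names were rebuilt here from marker genes and may differ from those of the study. The rod-like cluster (1180, 556 and 746 cells) raised 15 of 15 rod markers, the cone-like cluster (278, 542 and 412 cells) 12 of 12 cone markers, the MG-like cluster (530, 2492 and 1748 cells) 17 of 18 MG markers, and the cluster like rod bipolar cells (RBC-like) 14 of 14. Cone bipolar cells of the ON type (ON-CBC-like, cluster 3) raised 12 of 19 markers and those of the OFF type (OFF-CBC-like, clusters 7 and 8) 9 and 14 of 19. Clusters 6 and 10 raised 10 and 11 of 19 ON cone bipolar markers and also held amacrine markers, most in WT. They kept their numbers and are not part of the bipolar classes. Transcripts of other cells were present in every class: MG markers summed to 382, 967 and 811 CPM in rod-like and 413, 956 and 899 CPM in cone-like cells, and rod markers to 1216, 1696 and 1825 CPM in MG-like cells, where 15 of 15 were detected, against 62912, 61013 and 64949 CPM in rod-like cells. The clusters were made from expression in these same cells, by the text of the study from the most variable genes. Whether the members were among those is not known, so differences between classes are a description. With 1 library per group no p-value is given, and all 95% intervals cover counting error only. Over 3 libraries the smallest exact two-sided sign-flip p would be 0.25.

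Hk2 was the member that separated photoreceptors most. Hexokinase traps glucose in the cell by phosphorylating it. In rod-like cells Hk2 stood at 1165 (WT), 1215 (rd10-vehicle) and 1088 CPM (rd10-TMB), and in cone-like cells at 830.2 (WT), 687 (rd10-vehicle) and 635 CPM (rd10-TMB). In MG-like cells it stood at 39.8, 59.3 and 49.6 CPM. RBC-like cells had 16.3, 19.1 and 18.5 CPM, ON-CBC-like cells 75.5, 58.8 and 92.7 CPM and OFF-CBC-like cells 67.5, 52.3 and 51.6 CPM. All 6 photoreceptor values thus lay above every value of the glia and bipolar classes, and rod-like (1156 ± 64.1 CPM, SD, n = 3 libraries) and cone-like cells (718 ± 101 CPM) did not overlap. With each cell thinned to 1000 UMIs, Hk2 was seen in 64.0%, 68.2% and 63.2% of rod-like cells and 56.4%, 52.0% and 51.1% of cone-like cells, against 3.04%, 5.25% and 3.88% of MG-like cells. Without thinning the shares were 75.7%, 80.4% and 79.2% of rod-like cells, at medians of 1423, 1406 and 1536 UMIs, and 17.5%, 27.7% and 26.2% of MG-like cells, at medians of 6300, 8593.5 and 9454.5 UMIs, and thinning left out 226, 68 and 80 rod-like and 3, 16 and 21 MG-like cells. Hk2 in MG-like cells was lowest in WT, as was the sum of rod markers there, and subtracting free RNA scaled on those markers left 12.4, 0.775 and 6.62 CPM. The subtraction took the markers as 14.5%, 46.3% and 33.4% of their level in the whole library, so these remainders are near the floor.

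Hk1 was spread more evenly over neurons. It stood at 318, 382 and 348 CPM in rod-like, 243, 235 and 209 CPM in cone-like and 221, 242 and 245 CPM in RBC-like cells, and at 48.2, 74.3 and 66.8 CPM in MG-like cells. Rod-like cells were above all other classes without overlap, whereas cone-like, RBC-like and ON-CBC-like ranges overlapped. Of all hexokinase UMIs, Hk2 took 76.8% ± 1.56 (SD, n = 3 libraries) in rod-like and 75.6% ± 1.58 in cone-like cells, against 6.97% ± 0.202 in RBC-like, 24.4% ± 4.37 in ON-CBC-like and 21.8% ± 2.51 in OFF-CBC-like cells. The neurons therefore split into photoreceptors with mostly Hk2 and bipolar cells with mostly Hk1. MG-like cells had a further form, Hkdc1, a hexokinase-like protein, at 27.2% ± 4.52 of the step. Beside it were Hk1 at 40.1% ± 2.54 and, without subtraction of free RNA, Hk2 at 31.5% ± 1.89. Hkdc1 had 0 UMIs in RBC-like cells of every library.

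**Figure D1:**
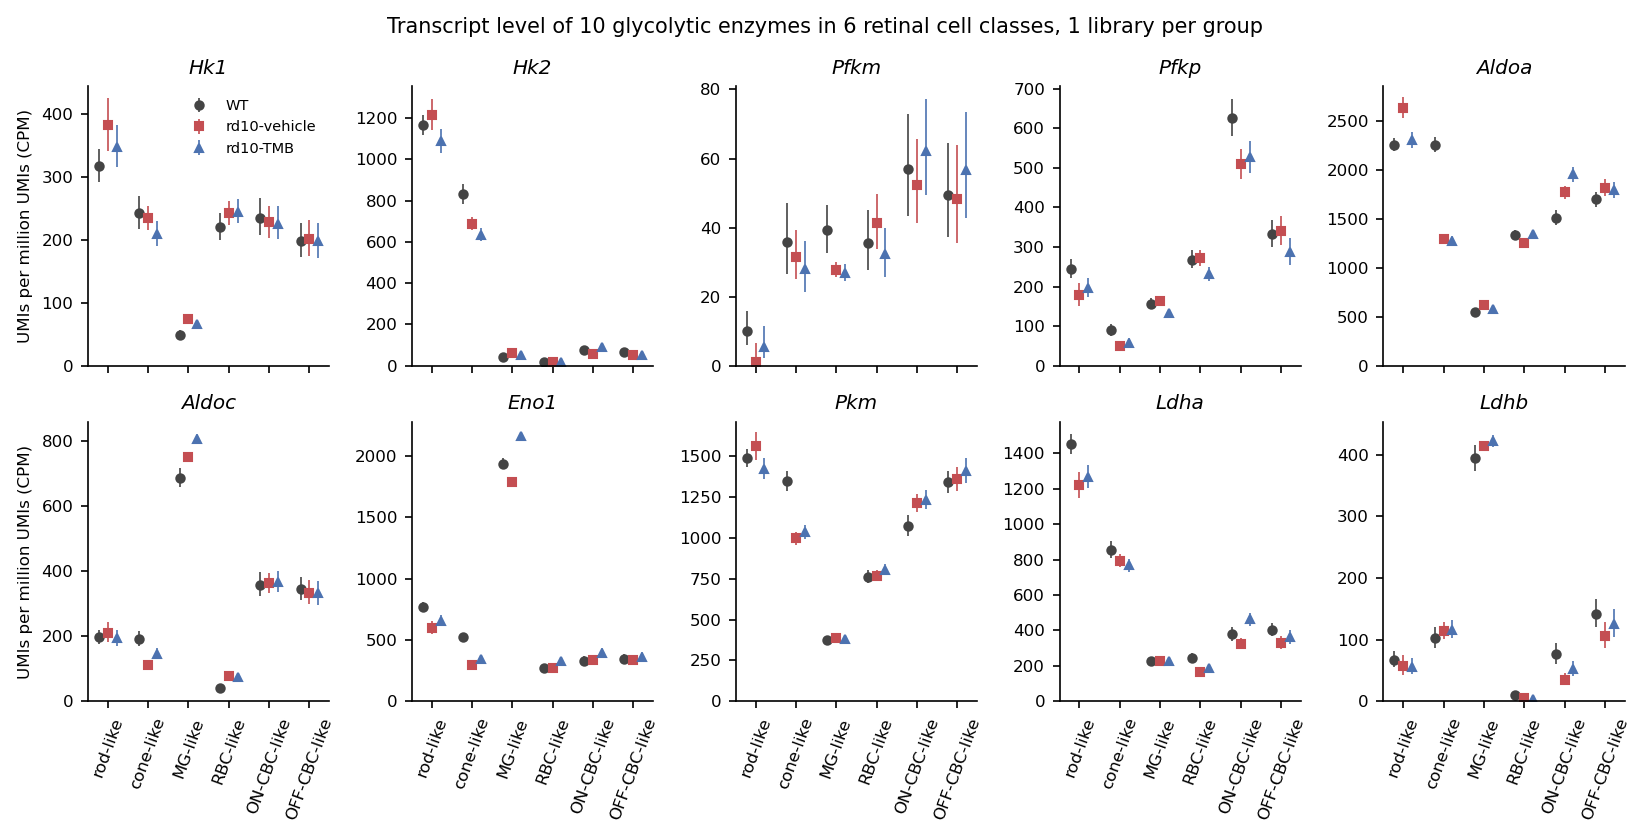
Level of each of the 10 genes (y axis, CPM, linear from 0) in 6 cell classes (x axis), with 1 point per library and exact 95% Poisson counting intervals. Hk2 and Ldha are highest in rod-like and cone-like cells, Aldoc, Eno1 and Ldhb are highest of these 6 classes in MG-like cells, and in cone-like cells the WT point of Aldoa stands apart from the 2 rd10 points.

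Phosphofructokinase commits sugar to glycolysis, and its muscle (Pfkm) and platelet (Pfkp) forms separated the photoreceptors from each other. Pfkm was nearly absent from rod-like cells, at 10.0, 1.16 and 5.54 CPM from 18, 1 and 7 UMIs, and stood at 35.8, 31.6 and 28.1 CPM in cone-like cells. Pfkp went the other way, with 245, 178 and 196 CPM in rod-like and 89.1, 49.1 and 58.0 CPM in cone-like cells. These were the only members called between the photoreceptors, where 3.34% of 8374 genes were called higher and 4.66% lower. On the log2(CPM + 10) scale the mean ratio of rod-like to cone-like cells was 1.54 ± 0.16 (Pfkp) and -1.46 ± 0.38 (Pfkm). Pfkm reached the minimum of 100 UMIs through cones, and the size of its ratio depends on the 10 CPM added. The highest Pfkp level was that of ON-CBC-like cells (554 ± 63.2 CPM), and the highest Pfkm level that of amacrine-like cells (96.6 ± 12.5 CPM). MG-like cells had 156, 163 and 133 CPM of Pfkp and 39.2, 27.8 and 26.9 CPM of Pfkm. Pfkm thus made up 1.26% ± 0.946 of phosphofructokinase UMIs in rod-like cells and 18.4% ± 3.78 in cone-like cells. The liver form Pfkl, which is not one of the 10, took 50.3% ± 5.22 in rod-like and 45.2% ± 3.53 in cone-like cells, beside 48.5% ± 4.36 and 36.3% ± 2.10 for Pfkp, so that Pfkl and Pfkp did not differ beyond their spread in rods.

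Aldolase splits the phosphorylated sugar into smaller ones. Aldoa, the form of muscle and most tissues, stood at 2260.2 (WT), 2639 (rd10-vehicle) and 2307 CPM (rd10-TMB) in rod-like cells and was the most abundant member there. Cone-like cells had 2261, 1292 and 1280.2 CPM, so that WT cones matched rods and both rd10 libraries lay below. MG-like cells had 544, 622 and 584 CPM, under every neuronal class. Aldoc was highest in MG-like cells of the 6 classes, with 687, 751 and 806 CPM in MG-like cells, 197, 211 and 195 CPM in rod-like, 192, 112 and 145 CPM in cone-like, 359, 363 and 367 CPM in ON-CBC-like and 40.7, 77.6 and 73.3 CPM in RBC-like cells. Its share of the step was 56.2% ± 1.69 in MG-like and 7.74% ± 0.309 in rod-like cells. The highest Aldoc value of any class was in astrocyte-like cells of rd10-vehicle, at 5537 CPM over 88 cells, the 1 library in which that class reached 50 cells.

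Further down the pathway, enolase makes phosphoenolpyruvate and pyruvate kinase turns it into pyruvate. Eno1 was the most abundant member in MG-like cells, at 1939, 1786 and 2162 CPM, above rod-like cells at 768, 598 and 655 CPM, cone-like cells at 521, 292 and 347 CPM and RBC-like cells at 269.7, 269.9 and 326 CPM. Pkm was low in MG-like cells, at 372, 386 and 379.5 CPM, and high in rod-like cells, at 1488, 1559 and 1423 CPM, in cone-like cells, at 1347, 996 and 1032 CPM, and in OFF-CBC-like cells, at 1340.1, 1357 and 1409 CPM. The tags do not separate the spliced forms of Pkm. Neurons also used Eno2, the neuronal enolase, which took 35.9% ± 3.91 of enolase UMIs in cone-like and 14.6% ± 1.18 in rod-like cells and 0.949% ± 0.120 in MG-like cells. Eno1 reads are the least certain here, since 60.3% of the 90-base windows in the last 500 bases of its transcripts also occur in other genes, Eno1b among them, against 13.2% for Ldhb, 2.32% for Ldha, 1.94% for Pkm and 0 for the other 6 members.

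Lactate dehydrogenase differed in both level and make-up. Ldha stood at 1454 (WT), 1221 (rd10-vehicle) and 1268 CPM (rd10-TMB) in rod-like cells and at 855, 794 and 769 CPM in cone-like cells. MG-like cells had 227, 227 and 228 CPM, with an SD of 0.685 CPM over the 3 libraries, and RBC-like cells 247, 167 and 187 CPM. Ldha therefore placed rods first and cones second, with no overlap between them or with any other of the 10 classes that had 50 cells in each library. Ldhb was highest in amacrine-like cells (492 ± 21.2 CPM). By the mean over libraries it was next in MG-like cells, at 394, 415 and 422 CPM, though the range of cluster 10 overlapped (80.1 to 430.4 CPM). It was lower in cone-like cells, at 103, 114 and 116 CPM, and in rod-like cells, at 67.8, 56.9 and 56.2 CPM, and RBC-like cells had only 20, 13 and 9 UMIs. The B form took 64.3% ± 0.756 of the step in MG-like, 56.5% ± 2.30 in amacrine-like, 25.5% ± 0.881 in OFF-CBC-like, 12.2% ± 1.24 in cone-like and 4.38% ± 0.124 in rod-like cells. In cells thinned to 1000 UMIs it was seen in 31.7%, 36.1% and 33.4% of MG-like cells.

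**Figure D2:**
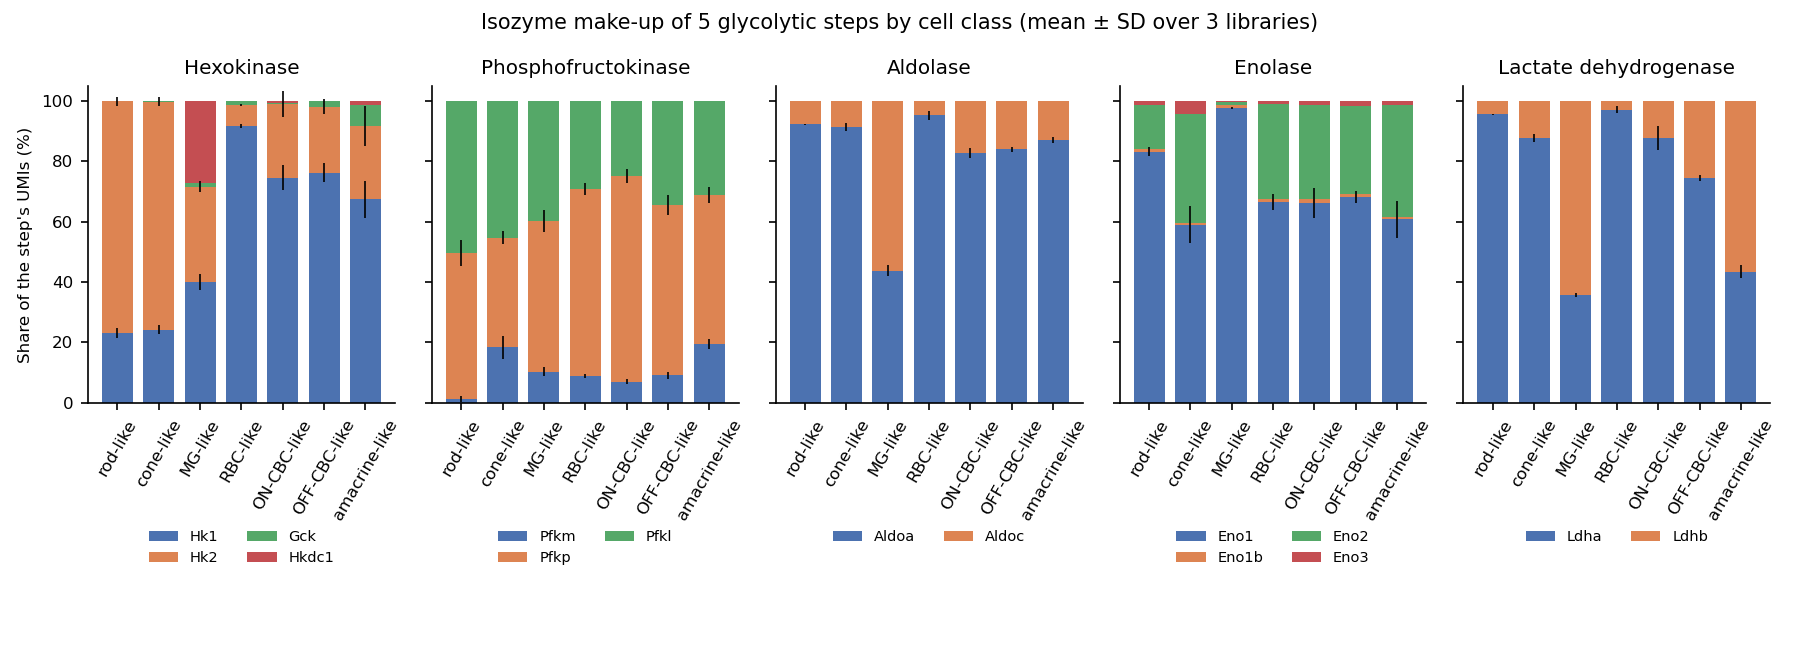
Share of the UMIs of 5 enzyme steps (y axis, percent) taken by each isozyme gene in 7 cell classes (x axis), as means over 3 libraries. Error bars are the SD of the share of the segment they top, drawn for the lowest segment and, in hexokinase and phosphofructokinase, also for the second. Hk2 takes the largest share of hexokinase in rod-like and cone-like cells, and Ldhb takes most of lactate dehydrogenase in MG-like and in amacrine-like cells.

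Set against MG-like cells as the mean of rods and cones on the log2(CPM + 10) scale, photoreceptors were at least 2-fold higher in all 3 libraries for 5 of 10 members, a call reached by 8.76% of 12660 genes, and at least 2-fold lower for 3, a call reached by 12.8%. The higher members were Hk2 (3.96 ± 0.31, mean log2 ratio ± SD, n = 3 libraries, or 15.6-fold), Ldha (2.13 ± 0.11), Hk1 (2.02 ± 0.25), Pkm (1.74 ± 0.14) and Aldoa (1.71 ± 0.28). The lower ones were Ldhb (-2.19 ± 0.07, or 4.56-fold), Aldoc (-2.06 ± 0.25) and Eno1 (-1.94 ± 0.30).  Pfkm (-0.71 ± 0.10) and Pfkp (-0.35 ± 0.33) were not called, and for both the photoreceptors disagreed, since rods alone gave -1.44 and cones alone 0.03 for Pfkm, and rods alone 0.42 and cones alone -1.12 for Pfkp. As Pfkm is near the floor in rods, the size of its rod ratio depends on the 10 CPM added. The median of the members was 0.68, and that of all genes 0.02. The members thus lay on both sides.

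Of the other enzymes of the pathway, 19 were listed, 15 were in the matrix and 11 had enough UMIs. Photoreceptors were higher for Gpi1 (glucose phosphate isomerase, 1.36 ± 0.39), and for Eno2 (2.59 ± 0.13), and lower for Hkdc1 (-2.29 ± 0.36). Hkdc1 was near the floor in photoreceptors, with means of 0.387 CPM in rod-like and 1.09 CPM in cone-like cells, against 44.2 CPM in MG-like cells. The size of the Hkdc1 ratio therefore depends on the constant added to CPM. The call for Gpi1 was reached by rods alone (1.52 ± 0.22) and not by cones alone (1.20 ± 0.55). Of the middle steps, Pgam1 was at 1.05 ± 0.45 without a call, as not every library reached the limit. It was called for rods alone and not for cones alone. Tpi1 (0.45 ± 0.15), Gapdh (0.45 ± 0.20) and Pgk1 (0.30 ± 0.30) were nearer to 0. Of 7 regulators tested, Pfkfb2, which makes the activator of phosphofructokinase (2.40 ± 0.39), and Tigar, which removes it (1.65 ± 0.26), were higher, and Pdk2, which shuts pyruvate out of mitochondrial oxidation, was lower (-1.78 ± 0.17).

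**Figure D3:**
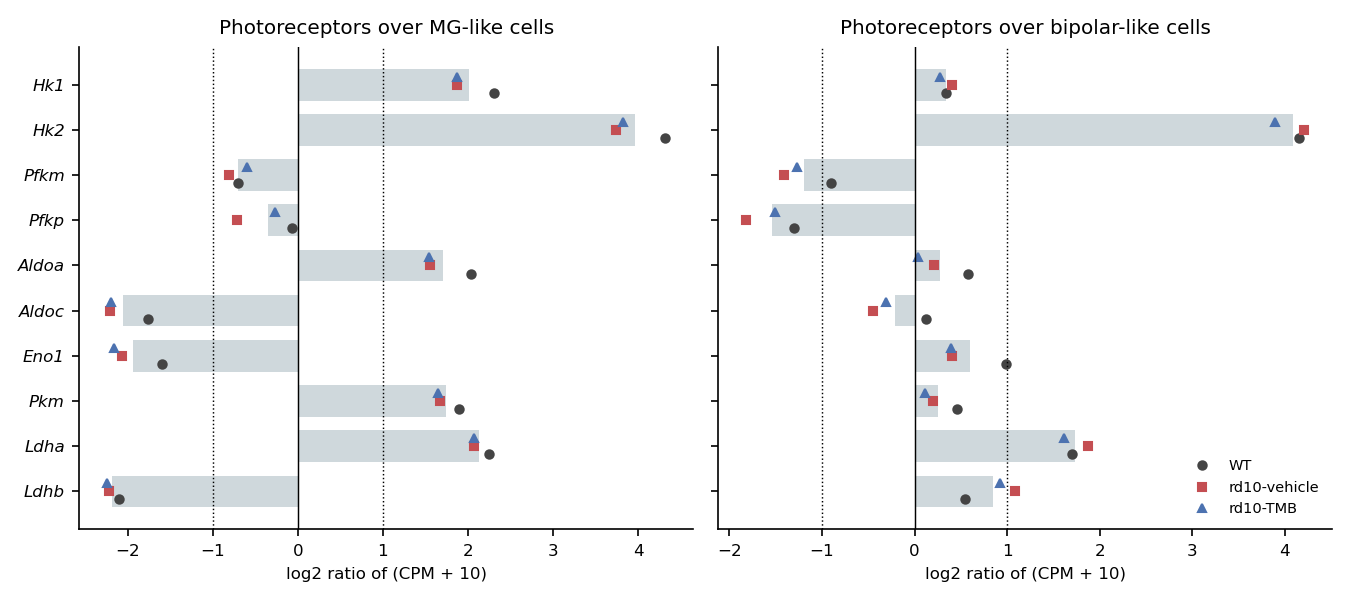
Log2 ratio of photoreceptors to MG-like cells (left) and to bipolar-like cells (right) for the 10 genes, from log2(CPM + 10). Bars are means over 3 libraries, points are single libraries and dotted lines the 2-fold limits. Against MG-like cells 5 genes lie beyond the upper limit and 3 beyond the lower in every library, while against bipolar-like cells only Hk2 and Ldha lie beyond the upper limit in all 3.

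Against the mean of the 3 bipolar classes, fewer members stood apart. Hk2 (4.09 ± 0.17, or 17.0-fold) and Ldha (1.73 ± 0.13) were at least 2-fold higher in 3 of 3 libraries, where 5.19% of 10898 genes were called higher, and Pfkp (-1.54 ± 0.26) was lower, where 8.98% were. The call for Pfkp rested on cones, as rods alone gave -0.77. Pfkm (-1.19 ± 0.26) was 2-fold lower in both rd10 libraries and -0.90 in WT, so it was not called, and without WT it was. Rods alone were called, at -1.93 ± 0.43, and cones alone were at -0.46 ± 0.16. With 18, 1 and 7 UMIs of Pfkm in rod-like cells, the size of the rod ratio depends on the 10 CPM added. The other members differed by less, from -0.21 ± 0.30 for Aldoc to 0.85 ± 0.28 for Ldhb, with Aldoa at 0.28 ± 0.28, Pkm at 0.26 ± 0.18 and Hk1 at 0.34 ± 0.07. The median of the members was 0.31 against -0.09 for all genes. None of 10 other enzymes was called, and their median was -0.24, below that of all genes, so the members do not stand for the whole pathway here. Of 7 regulators Pfkfb2 was higher (1.81 ± 0.10) and Pdk1, a second kinase of pyruvate dehydrogenase, lower (-1.31 ± 0.33). Pdk1 was called by cones alone (-1.94 ± 0.09) and not by rods alone (-0.69 ± 0.61). Cones had a mean of 1.45 CPM of Pdk1, so the size of that ratio depends on the 10 CPM added. The called members were thus a hexokinase, a phosphofructokinase and a lactate dehydrogenase.

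Summed over the 10 genes, rod-like cells had 7973, 8062 and 7543 CPM, cone-like cells 6478, 4603 and 4619.8 CPM, MG-like cells 4446, 4512 and 4858 CPM and RBC-like cells 3208, 3109.7 and 3266 CPM. The ON-CBC-like sum was 4729, 4892 and 5374 CPM and the OFF-CBC-like sum 4927, 4932 and 4977 CPM. Rods led in every library, and cones came second in WT but lay below both cone bipolar-like sums in either rd10 library. The sums leave out the other enzymes, which did not all follow this order. In rod-like and ON-CBC-like cells the means were 517 and 1143 CPM for Tpi1 and 608 and 1109 CPM for Pgam1. For Gapdh they were 2554 and 2568 CPM, and for Pfkl 212 and 203 CPM.

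The comparison of rd10-vehicle with WT asks how the mutation and its degeneration go with these transcripts. It was possible for 57 of the 60 pairs of a member and 1 of the 6 classes, those with at least 100 UMIs over both libraries. A pair was called at 1.5-fold, which gave 2 higher and 5 lower. In cone-like cells 4 of 10 members were lower, in a class where 2.64% of 5382 genes were called lower and 5.57% in either direction. Aldoa went from 2261 to 1292 CPM, a log2 ratio of -0.81 (95% interval -0.88 to -0.74). Eno1 went from 521 to 292 CPM, at -0.83 (95% interval -0.98 to -0.69). Aldoc went from 192 to 112 CPM, at -0.78 (95% interval -1.02 to -0.53). Pfkp went from 89.1 to 49.1 CPM, at -0.86 (95% interval -1.23 to -0.49), but at -0.13 when cells were thinned to 1000 UMIs. Pfkp, Aldoa and Aldoc act in the upper pathway and Eno1 in the lower.

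The other 6 members in cones were not called. Hk1 had a ratio of -0.05 (95% interval -0.24 to 0.15), Ldha -0.11 and Ldhb 0.15 (95% interval -0.14 to 0.44). Hk2 (-0.27), Pkm (-0.44) and Pfkm (-0.18) lay below 0. In all, 9 of 10 members lay below 0 with a median of -0.35, against -0.04 over all genes of the class. The other enzymes were mostly lower too, with a median of -0.61. Of 9 tested, Pfkl (-0.96), Pgam1 (-0.96), Tpi1 (-0.88), Pgk1 (-0.62) and Gpi1 (-0.61) were lower, Gapdh was at -0.42, Bpgm was above 0 at 0.52 without a call, and Eno3, the muscle enolase, was higher at 1.15 from 24 UMIs in WT and 96 in rd10-vehicle. The rd10-TMB library, set against the same WT library, gave -0.82 for Aldoa, -0.62 for Pfkp and -0.59 for Eno1, the 3 members called lower (3.04% of 5025 genes), and -0.40 for Aldoc. Gpi1 (-0.59), Pfkl (-0.91), Tpi1 (-0.80), Pgk1 (-0.74) and Pgam1 (-0.90) were lower there too. Both comparisons rest on 278 WT cone-like cells. In these cells MG markers summed to 413, 956 and 899 CPM, rod markers to 14076, 12719 and 13471 CPM and cone markers to 47965, 43632 and 44970.4 CPM, and the median mitochondrial share of UMIs was 8.77%, 10.2% and 10.3%. The part of these markers in the lower ratios was not tested. Among cells with at most 10% mitochondrial UMIs the ratios were -0.75 for Aldoa and -0.82 for Eno1. When WT was limited to its 126 cone-like cells holding Xist UMIs but none from Y-linked genes, the ratios were -0.75 and -0.84.

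**Figure D4:**
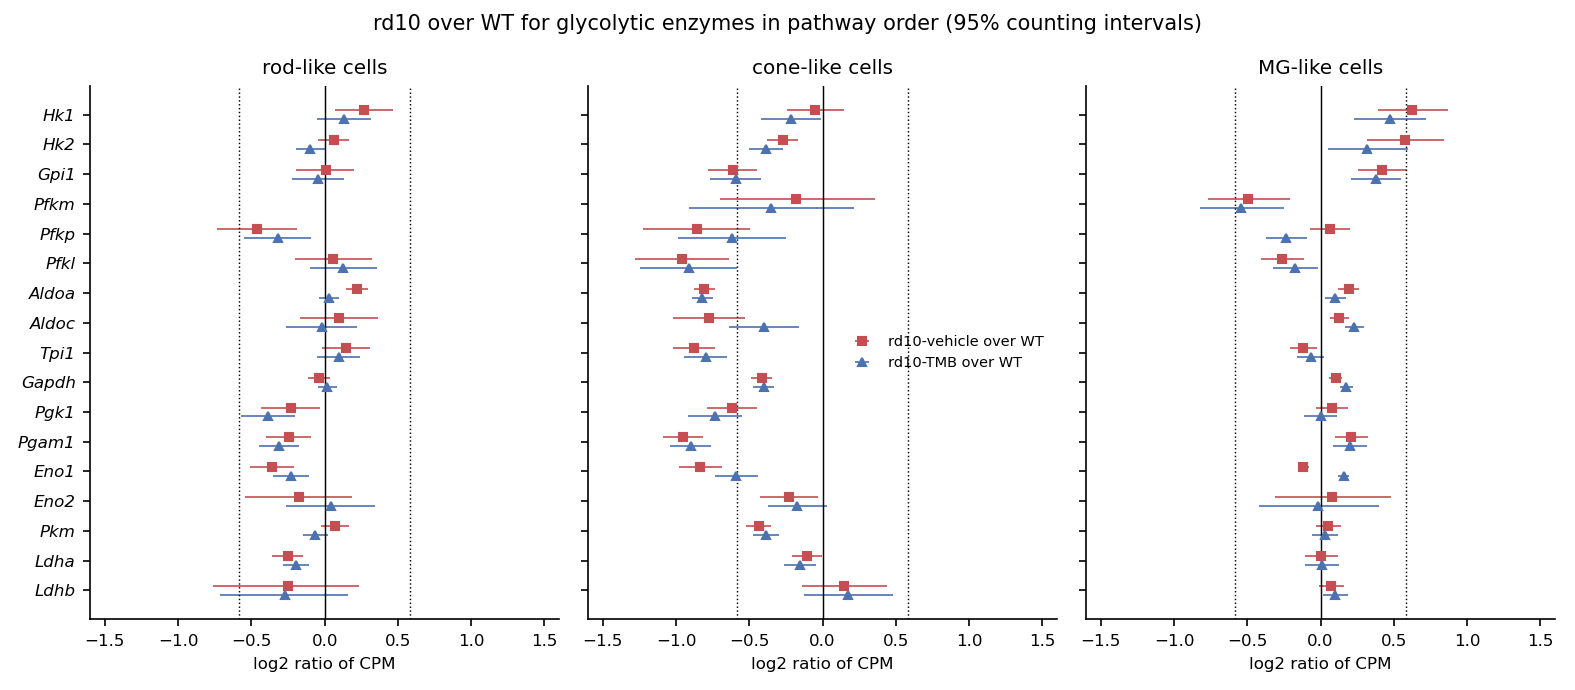
Log2 ratio of CPM (x axis) of rd10-vehicle and of rd10-TMB to the same WT library for 17 glycolytic genes in pathway order (y axis, without Bpgm, Eno1b and Eno3, among others), in rod-like, cone-like and MG-like cells. Bars are exact 95% counting intervals and dotted lines the 1.5-fold limits. In cone-like cells the genes from Gpi1 to Eno1 lie left of 0 in both rd10 libraries, while in rod-like cells no plotted gene lies beyond a limit.

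In rods, the cells that use Pde6b, the members stood closer to WT. None of 9 members tested was called in rod-like cells, where 10.6% of 4279 genes were, and their median was 0.06 against -0.05. The ratios ran from -0.46 for Pfkp and -0.36 for Eno1 to 0.27 for Hk1, with Hk2 at 0.06. Of the other listed genes, Bpgm, a bisphosphoglycerate mutase, was higher at 0.96 and Pfkfb2 lower at -0.85. Pfkm had too few UMIs there. The difference between the ratios of rods and cones was not tested.

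In MG-like cells Hk1 alone was called, with 48.2 CPM in WT and 74.3 in rd10-vehicle, a ratio of 0.63 (95% interval 0.39 to 0.87), in a class where 15.3% of 11190 genes were called. It was under the limit at 0.56 among cells with at most 10% mitochondrial UMIs, at 0.53 without the 5% of cells with the most UMIs and at 0.42 after free RNA was subtracted, and it was at 1.42 when cells were thinned to 1000 UMIs. Hk2 was just inside the limit at 0.58 (95% interval 0.32 to 0.85), and at 0.77, past it, when cells were thinned. Rod markers there were lowest in WT as well and stood at 1696 CPM in rd10-vehicle and 1825 in rd10-TMB. Their part in the Hk2 ratio was not tested. After free RNA was subtracted, 12.4 CPM was left in WT and 0.775 in rd10-vehicle, too little for a ratio to be given. Among the other enzymes Hkdc1 was higher, at 28.6, 64.5 and 39.6 CPM, or 1.17 (95% interval 0.87 to 1.49) for rd10-vehicle, and of the regulators Pfkfb2 (3.61 CPM in WT and 7.21 in rd10-vehicle) and Pfkfb3 (6.33 and 12.2) were higher and Pfkfb4 (12.3 and 6.80) lower, with 12, 21 and 41 UMIs in WT. Aldoc (0.13), Eno1 (-0.12) and Ldhb (0.07), the members highest in MG-like cells among the 6 classes, stayed close to WT.

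The bipolar classes gave 2 calls. Aldoc in RBC-like cells was higher, with 40.7 (WT), 77.6 (rd10-vehicle) and 73.3 CPM (rd10-TMB), at 0.93 (95% interval 0.55 to 1.32), where 3.56% of 5963 genes were called, and MG markers there summed to 208, 654 and 483 CPM. After subtraction of free RNA scaled on MG markers the ratio was 0.93. Ldhb in ON-CBC-like cells was lower, from 82 UMIs in WT and 50 in rd10-vehicle, at -1.13 (95% interval -1.66 to -0.60), where 6.66% of 4505 genes were called, and amacrine markers, whose cells have the most Ldhb, summed to 478, 476 and 416 CPM. In clusters 6 and 10 Ldhb went with amacrine transcripts. It stood at 102, 18.9 and 15.8 CPM in cluster 6, where amacrine markers summed to 2838, 233 and 191 CPM, and at 430.4, 80.1 and 216 CPM in cluster 10, where they summed to 1894, 351 and 927 CPM. Eno2 was lower in cluster 6 as well (-0.60). Cluster 10 also had lower Eno1 (-0.62) and Aldoa (-0.59) in rd10-vehicle. The part of amacrine RNA in those values was not tested, and amacrine-like cells made up 16.9% of WT cells, 1.76% of rd10-vehicle and 1.72% of rd10-TMB cells. For clusters 6 and 10 and for amacrine-like cells the share of all genes called was not computed in any comparison. Their calls therefore cannot be weighed against such a share. Pdk1 in amacrine-like cells passed the limit with an interval that held 0, at -0.92 (95% interval -2.26 to 0.17), from only 7 UMIs in rd10-vehicle, and their 2 clusters had 461 and 295 cells in WT but 43 and 62 in rd10-vehicle. No member was called in OFF-CBC-like cells, where 2.69% of 3937 genes were. Outside the 6 classes, endothelial-like cells, a cluster that also raised 12 of 12 pericyte markers, had 2 of 7 members lower, Hk1 (-0.62) and Eno1 (-0.65), where 8.42% of 5142 genes were called lower, together with Tpi1 (-0.76), Pgk1 (-1.20) and Pgam1 (-1.21).

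The comparison of rd10-TMB with rd10-vehicle asks whether the drugs moved these transcripts. It shares the rd10-vehicle library with the comparison above. Of 58 pairs tested 1 was called, Hk2 in ON-CBC-like cells, with 84 UMIs in rd10-vehicle and 121 in rd10-TMB and a ratio of 0.66 (95% interval 0.24 to 1.08), in a class where 1.88% of 4734 genes were called. It was not called among cells with at least 1000 genes, at 0.57, with at most 10% mitochondrial UMIs, at 0.55, or thinned to 1000 UMIs, at 0.50. In the other classes no member was called, beside 3.02% of genes in rod-like, 2.12% in cone-like, 2.05% in MG-like, 1.62% in RBC-like and 2.0% in OFF-CBC-like cells. All 58 ratios lay between -0.36 and 0.66. Of the members lower in cones of rd10-vehicle than of WT, Aldoa (-0.01 (95% interval -0.09 to 0.06)) and Pfkp (0.24 (95% interval -0.13 to 0.61)) had intervals that held 0. Eno1 (0.25 (95% interval 0.10 to 0.39)) and Aldoc (0.37 (95% interval 0.14 to 0.61)) were above rd10-vehicle by more than counting error and by less than 1.5-fold. The median of the 10 members in cones was 0.01. In ON-CBC-like cells 9 of 10 members lay above 0 with a median of 0.19, against -0.00049 over all genes there, and in the other 4 classes the medians ran from -0.12 to 0.02. The spread between pools of mice is unknown. Outside the 6 classes Ldhb in cluster 10 was higher in rd10-TMB (1.43), as were the amacrine markers there. Of the other enzymes and regulators in the 6 classes 1 was called, Hkdc1 in MG-like cells, lower at -0.70 (95% interval -0.84 to -0.57).

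The genes whose pattern was most like the 2 extreme members were sought over 30 points, the 10 classes in 3 libraries, among 12525 genes. The points share libraries and cell types, so the correlations are a description. For Hk2 these were Pde6g (Pearson r = 0.984), Sag (0.983), Grk1 (0.983), Pdc (0.975) and Rtbdn (0.973), all known photoreceptor genes. For Ldhb they were Basp1 (0.826), Fads2 (0.820), Xpr1 (0.813), Dtx4 (0.812) and Fkbp5 (0.806), with lower correlations.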

How the data were processed

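Retinas were dissociated and sequenced with a 3′ droplet kit. The authors aligned reads with Cell Ranger 6.0.1 to mm10, removed doublets with Cumulus and Scrublet before deposit (no caller was run here), kept cells with at least 500 genes in Seurat 3.2.2 and integrated libraries with Harmony. The deposited matrix held natural log values of UMIs scaled to a fixed total per cell, plus a pseudocount, and a deposited table held each cell's library, cluster number and total count. The authors' tests with MAST were not used. UMI counts were recovered by inverting the log with the totals: 32620606 entries, 100% of them, were within 0.001 UMI of a whole number, and 15242 of 15242 cell totals were matched.

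Counts were summed per class and library and divided by the total of that sum (CPM). With 1 library per group there was no test. Classes were compared within each library on log2(CPM + 10), and a gene was called at 2-fold in all 3 libraries. Libraries were compared per class by the ratio of CPM for genes with at least 100 UMIs, called at 1.5-fold whatever the 95% interval. Free RNA was subtracted, as an alternative, with the whole library as its profile and its share set by MG markers, or by rod markers in MG-like cells. Intervals were exact and covered counting error only, since the spread between mice was not measured. Depth ran from 18882951 to 37002532 UMIs per library. Classes with at least 50 cells in a library were used. Clusters were named from 186 marker entries, a marker counting as raised at 2-fold and 20 CPM. Detection was compared in cells thinned to 1000 UMIs. All 10 members are named, and of the other listed enzymes (19 listed, 15 in the matrix, without Gapdhs, Pgk2, Pklr and Ldhc) and 9 regulators those called or needed as a contrast. Genes of similar pattern were the 5 with the highest Pearson r among genes with at least 300 UMIs. Members, lists and rules were chosen with earlier results of these data known. Positions were from GENCODE M21 and promoters from RefSeq GRCm38.p6, and all 10 members had a promoter entry. Several members overlap a gene on the opposite strand, among them Aldoa and Fam57b. Alternatives changed the totals, the size factors, the weighting of cells, the cells kept, the depth, free RNA, the cluster, the pseudocount, the fold limit, the UMI minimum and the libraries. Python 3.11.15, numpy 2.4.6, scipy 1.17.1, pandas 2.3.3 and matplotlib 3.10.9 were used, and the steps were tested on simulated data.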

Additional observations from a re-analysis of the deposited data

Results flagged for a closer look

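For 3 sets of ratios, a member past the 1.5-fold limit in 1 class lay on the opposite side of 0 in another, with counting intervals that excluded 0 in both. The difference between classes was not tested, and each class is 1 pair of libraries. Aldoa in rd10-vehicle over WT had a log2 ratio of -0.81 in cone-like cells, against 0.22 in rod-like, 0.19 in MG-like, 0.23 in ON-CBC-like and 0.10 in OFF-CBC-like cells. Aldoc in rd10-vehicle over WT was at -0.78 in cone-like cells, against 0.13 in MG-like and 0.93 in RBC-like cells. Hk2 in rd10-TMB over rd10-vehicle was at 0.66 in ON-CBC-like cells, against -0.16 in rod-like, -0.11 in cone-like and -0.26 in MG-like cells.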

How the results depend on the processing

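No paired analysis was possible because each group held 1 library and the labels give no replicate numbers. Against MG-like cells, 5 members were called higher under every setting, and 3 lower under all but a 1.5-fold limit and rod-like cells alone, which gave 4. Leaving out a library left 5 and 3. Against bipolar-like cells, 2 were higher under every setting, and the count lower (1) became 2 at a pseudocount of 1 CPM and at a 1.5-fold limit, and 1 to 2 when a library was left out, 2 being without WT. For rd10-vehicle over WT, the count higher (2) was 1 among cells with at most 10% mitochondrial UMIs, 1 without the 5% of cells with the most UMIs, 1 with free RNA subtracted and 0 at a 2-fold limit. The count lower (5) was 13 at a fold limit below 1.5 and 1 at 2-fold, and that in cone-like cells (4) was 0 at 2-fold and 3 when thinned, without Pfkp. For rd10-TMB over rd10-vehicle, the count higher (1) was 2 as a mean over cells, 0 in cells with at least 1000 genes, 2 without the 5% of cells with the most UMIs, 2 when thinned, 3 with free RNA subtracted, 4 at the lower fold limit and 0 at 2-fold, and the count lower (0) was 1 when thinned and 1 at the lower fold limit. The pairs counted were not always the same. Hk2 in ON-CBC-like cells was not called when thinned or among cells with at most 10% mitochondrial UMIs. Over 14 settings the cone ratio of rd10-vehicle to WT ran from -0.87 to -0.75 for Aldoa, from -0.95 to -0.67 for Eno1, from -0.97 to -0.61 for Aldoc and from -0.98 to -0.13 for Pfkp. The ratio of Hk2 in photoreceptors to MG-like cells ran from 3.56 to 4.30 over the settings other than subtraction of free RNA, which left Hk2 in MG-like cells near the floor. The share of a step in rod-like minus MG-like cells, in percentage points, was 45.2 for Hk2, against 41.9 in cells with at least 1000 genes, 46.2 among cells with at most 10% mitochondrial UMIs and 68.8 with free RNA subtracted, which rests on those remainders. For Pfkp it was -1.58, and 2.52 when thinned, a change of sign. For Aldoc it was -48.4, and -59.6 with free RNA subtracted. For Eno1 it was -14.4, against -15.7 as a mean over cells, -12.8 in cells with at least 1000 genes and -15.7 with free RNA subtracted. For Ldhb it was -60.0, against -60.8 as a mean over cells, -61.2 without the 5% of cells with the most UMIs and -70.2 with free RNA subtracted. Median-of-ratios scaling moved the median of all genes by -0.11 against MG-like cells. The cause of these changes was not tested. Among single members, 33 of 170 values against MG-like cells, 26 of 170 against bipolar-like cells, 47 of 741 for rd10-vehicle over WT and 32 of 696 for rd10-TMB over rd10-vehicle moved beyond their spread. Depth limits Pfkm in rod-like cells, with 1 to 18 UMIs, and Ldhb in RBC-like cells, with 9 to 20 UMIs.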
